A study of Mus musculus with 3 samples.

Results

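Integrins are cell-surface receptors built from an alpha and a beta chain, and laminins are basement membrane proteins built from an alpha, a beta and a gamma chain. The alpha chain of an integrin largely sets which matrix protein it binds, whereas the beta tail inside the cell binds talin and kindlins, which switch the receptor on. In ductal epithelium and in tumours that arise from it, integrins α3β1, α6β1 and α6β4 hold cells to laminins, α2β1 binds collagen, α5β1 binds fibronectin, and integrins with the αv chain bind vitronectin, osteopontin, fibronectin or latent TGF-beta.

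The 34 genes described here were chosen by gene family name in the deposited table and not by a limit on their values: 16 integrin alpha chains, 8 integrin beta chains and 10 laminin chains. All 34 were among the 22737 genes analysed. Itga2b, another integrin alpha chain in the deposited table, was not among the 34 and is used here only as a platelet marker. The measurements come from RNA-seq of 3 mouse pancreatic tumour cell lines of the HI-Panc progression model, 1 library each, whose stage labels are localized, invasive and metastatic. All 3 lines came from tumours of transgenic mice whose genotype label includes p16-/-, arose without immortalization and were grown with 10% fetal bovine serum. Cobalt chloride, a chemical mimic of hypoxia, appears in a treatment text that is the same for every sample (100 ng/ml, 24 h), and the labels do not state whether the cells of these libraries received it. Age and sex were not given in the labels used here, and each stage is represented by 1 line. By tissue label the localized line is from body wall, the invasive line from pancreatic tissue and the metastatic line from liver, so the first pair is the reverse of what the stage names would lead a reader to expect. If those lines were exchanged, every invasive against localized direction would turn round and the comparisons with the metastatic line would change places.

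Values are FPKM, fragment numbers scaled to transcript length and to library size, after removal of a constant 0.1 that had been added to the deposited values. The summed FPKM lay between 565009 and 575244, and estimated depths lay between 41100000 and 45700000 fragments. Differences were taken on the log2(FPKM + 1) scale, which understates changes of low genes. A gene was tested against the fold limit only with a mean of at least 1 FPKM (11404 genes) and was called higher or lower from a difference of 1, which is 2-fold. Each line has 1 library, so there is no replicate error, none of the differences could be tested and no p-values are given. Intervals of ratios are 95% intervals from estimated fragment numbers and cover counting error only. They describe these libraries, not stages in general. In bulk libraries, fewer cells expressing a gene and less RNA per cell cannot be told apart.

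The labelled tumour cell type was checked against marker lists. Of 8 epithelial markers, 4, 7 and 6 reached 1 FPKM in the localized, invasive and metastatic libraries, and their summed FPKM was 1195, 6280 and 6786. Keratins made up most of these sums, while Epcam, a surface glycoprotein of most epithelia, had 0.209, 1.31 and 2.63 FPKM and Cldn4, a claudin of ductal tight junctions, stayed below 0.1 FPKM. The 8 fibroblast markers summed to 388, 57.1 and 13.9 FPKM in the same order, and Col1a1 and Col3a1 made up most of each sum. Pdgfra (42.7, 1.09 and 1.97 FPKM) and Pdgfrb (8.37, 0.838 and 1.84 FPKM) were lowest in the invasive library. Lum, Thy1 and Fap were listed at 0 in the metastatic library, but Fap had only about 5 and 4 fragments in the localized and invasive libraries. The localized library thus had the lowest summed epithelial and the highest summed fibroblast marker level. Single markers did not all follow, since Cldn7, another claudin, had 0.676, 1.33 and 0.244 FPKM and was lowest in the metastatic library. Krt8, a keratin of simple epithelium, did follow with 765, 2356 and 2247 FPKM, but its level in the localized library was already high. These markers moved with most of the differences below, and their part in them was not tested.

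Promoters are shown for a collagen receptor chain (Itga2), a laminin receptor chain (Itga3) and a laminin chain (Lama5), each past 2-fold in both comparisons with the localized library. Each sequence is the 200 bases before a RefSeq start of the gene on GRCm38.p6, 5′ to 3′ on the gene's own strand, which is the minus strand for all 3. Itga3 had 2 such windows, and the 1 nearest the start of its principal transcript is shown. Its 3′ part lies inside the annotated gene, which ends at 95076801. The sequences lie at chr13:114932101-114932300 for Itga2, chr11:95076715-95076914 for Itga3 and chr2:180225860-180226059 for Lama5. Capitals mark GGGCGG on either strand, the GC box bound by Sp and Klf factors.
Itga2: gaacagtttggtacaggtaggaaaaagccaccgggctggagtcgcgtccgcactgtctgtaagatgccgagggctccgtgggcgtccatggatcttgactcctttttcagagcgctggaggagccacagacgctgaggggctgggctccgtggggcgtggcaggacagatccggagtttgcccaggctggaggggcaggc
Itga3: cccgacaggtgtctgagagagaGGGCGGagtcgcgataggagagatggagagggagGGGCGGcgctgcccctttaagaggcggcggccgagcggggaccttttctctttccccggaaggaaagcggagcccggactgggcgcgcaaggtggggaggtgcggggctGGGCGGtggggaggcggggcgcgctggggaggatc
Lama5: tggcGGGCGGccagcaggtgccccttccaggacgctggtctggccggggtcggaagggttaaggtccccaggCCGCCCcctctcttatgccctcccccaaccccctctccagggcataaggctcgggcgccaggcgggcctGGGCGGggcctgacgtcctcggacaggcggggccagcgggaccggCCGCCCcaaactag
The GC box occurred 4 times before Lama5, 3 times before Itga3 and 0 times before Itga2. Of the 3 before this Itga3 start, the 1 at 35 bases lies inside the annotated gene. TGANTCA, the letters bound by AP-1, and GGAATG, the letters bound by TEAD factors, occurred in none of the 3 windows on either strand. Itga3 and Lama5 thus shared the GC box, and none of these letters occurred in all 3 windows. Their part in the differences of the genes was not tested. Among the 22 members with a promoter entry, 8 held the GC box, 1 held TGANTCA (Itgax) and 2 held GGAATG (Itga10 and Itgb1). Over all 32851 promoter windows of the same length, 31.0% held the GC box, 5.48% held TGANTCA and 10.1% held GGAATG.

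The family as a whole was dominated by Itgb1, the shared beta chain of most matrix-binding integrins, which had the highest level of any member in all 3 libraries. It had 199, 206 and 194 FPKM in the localized, invasive and metastatic libraries, with differences of -0.04, 0.05 and -0.08 for metastatic against localized, invasive against localized and metastatic against invasive. The common beta chain was thus nearly level while several of its partners were not, and its partner Itgav stayed within 2-fold in every pair. The 16 alpha chains summed to 184, 375 and 357 FPKM in the same order, so the alpha total lay below Itgb1 in the localized library and above it in the other 2. In all, 19, 19 and 17 of the 34 members reached 1 FPKM, and 18 passed the filter on the mean.

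**Figure D1:**
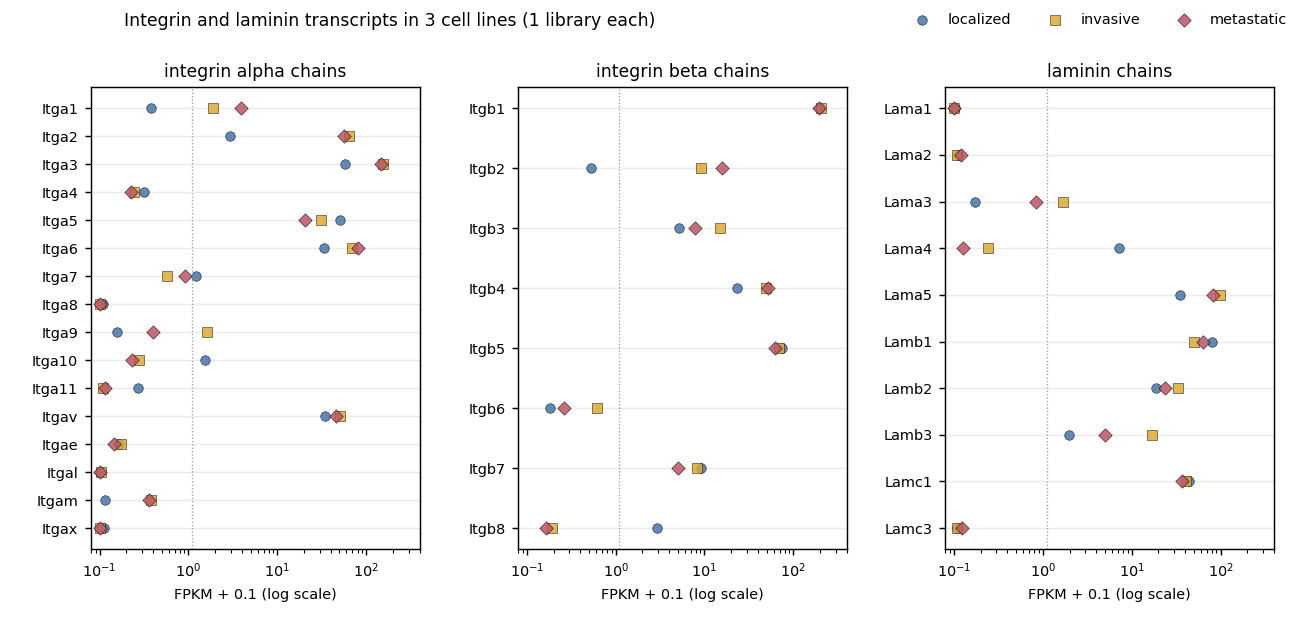
FPKM + 0.1 (log scale) of the 34 members in the localized, invasive and metastatic libraries, 1 point per library, with a dotted line at 1 FPKM. Itgb1 is highest in every library, Itga2 lies at 2.84, 64.1 and 56.3 FPKM, and Lama4 is above 1 FPKM only in the localized library.

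For metastatic against localized, 8 of the 18 filtered members lay 2-fold or more higher and 2 lower, beside 9.08% of all tested genes higher and 7.29% lower. The median member difference was 0.45, against 0.00405 over all tested genes. For invasive against localized, 9 of 18 members were higher and 1 was lower, beside 8.78% and 6.07% of all tested genes, and the median member difference was 0.92, against -0.00143. These comparisons share the localized library, so they are not independent of each other. For metastatic against invasive, 0 of 18 members were higher and 1 was lower, beside 1.33% and 1.67% of all tested genes, with a median of -0.15 against -0.00859. Split by role, the alpha chains had 4 of 6 higher and 1 lower for metastatic against localized, the beta chains had 2 of 6 higher and 0 lower, and the laminin chains had 2 of 6 higher and 1 lower.

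**Figure D2:**
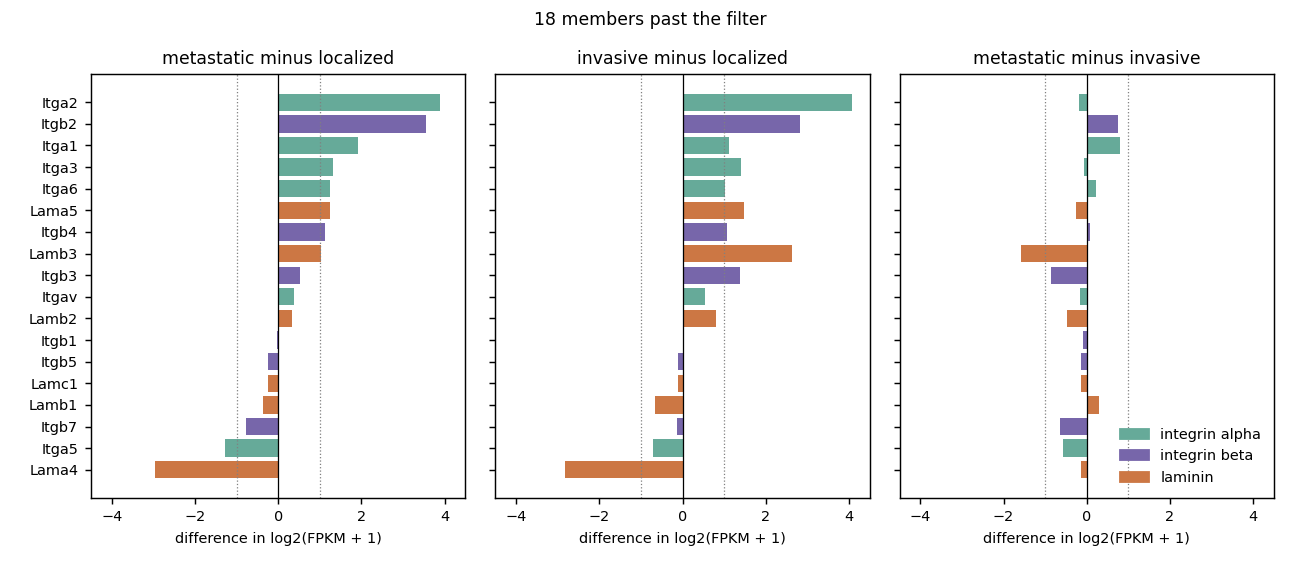
Difference in log2(FPKM + 1) of the 18 members past the filter for metastatic minus localized, invasive minus localized and metastatic minus invasive, with dotted lines at 2-fold and bars coloured by chain type. Itga2 and Itgb2 have the largest positive differences against the localized library, Lama4 the largest negative ones, and in the last panel Lamb3 alone is past 2-fold.

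Among collagen receptors, Itga2 showed the largest difference, which with a pseudocount of 1 was also the largest of the family. With a pseudocount of 0.1, Lama4 and Itgb2 exceeded it in size for metastatic against localized, and Lama4 did so for invasive against localized. Itga2 encodes the alpha chain of α2β1, an epithelial and platelet receptor for fibrillar collagen (GRCm38 chromosome 13, 114833081 to 114932100, minus strand). It had 2.84 FPKM in the localized library (about 900 fragments), 64.1 in the invasive (about 18251) and 56.3 in the metastatic library (about 16922). The localized library was low and the other 2 were alike. Its level was 19.8-fold higher in the metastatic than in the localized library (95% interval 18.5 to 21.2) and 22.6-fold higher in the invasive than in the localized library (21.1 to 24.1). On the log2 scale these were differences of 3.90 and 4.08, which ranked 91 and 66 from the top among 11404 genes. Its neighbour Itga1 encodes the alpha chain of α1β1, a receptor for basement membrane collagen, and lies 21.0 kb away on the same strand. It had 0.279, 1.80 and 3.83 FPKM in the localized, invasive and metastatic libraries (about 137, 796 and 1795 fragments). Itga1 was 13.8-fold higher in the metastatic than in the localized library (11.6 to 16.5) and 2.13-fold higher in the metastatic than in the invasive library (1.96 to 2.32). On the log2(FPKM + 1) scale the second of these was a difference of 0.79, under the 2-fold limit. Itga1 was thus higher at each labelled stage, while Itga2 was at similar levels in the invasive and metastatic libraries.

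The other collagen receptor chains were highest in the localized library. Itga10, the alpha chain of a cartilage collagen receptor, had 1.46, 0.179 and 0.132 FPKM in the localized, invasive and metastatic libraries. Itga11, known from fibroblasts as a receptor chain for fibrillar collagen, had 0.170, 0.0102 and 0.0145 FPKM, which is about 37, 2 and 3 fragments. Neither passed the filter on the mean, so neither was tested. As a share of the summed FPKM of the integrin alpha members, the 4 collagen-binding chains held 2.58%, 17.6% and 16.9% in the localized, invasive and metastatic libraries. In the invasive and metastatic libraries Itga2 made up most of this, and in the localized library Itga2 and Itga10 did.

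Against the localized library, type I collagen transcripts differed in the opposite direction to Itga2. For metastatic against invasive the signs were the same, with -0.18 for Itga2, -3.41 for Col1a1 and -4.99 for Col1a2. Col1a1, a chain of type I collagen, had 162, 46.3 and 3.45 FPKM in the localized, invasive and metastatic libraries, and its partner chain Col1a2 had 177, 33.4 and 0.0833 FPKM. Col1a2 was 2125-fold higher in the localized than in the metastatic library (95% interval 1339 to 3473), where about 19 fragments were estimated. The basement membrane collagens Col4a1 (65.1, 94.3 and 65.4 FPKM) and Col4a2 (36.5, 64.8 and 43.2 FPKM) stayed within 2-fold in every pair. Itga2 was thus lowest in the library with the highest type I collagen transcripts, and Itga11 was highest there.

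Laminin receptor chains formed the largest group of alpha transcripts and were higher in the invasive and metastatic libraries. Itga3 (GRCm38 chromosome 11, 95044474 to 95076801, minus strand), the alpha chain of α3β1, was the highest alpha chain in every library with 58.5, 156 and 148 FPKM in the localized, invasive and metastatic libraries. It was 2.53-fold higher in the metastatic than in the localized library (95% interval 2.48 to 2.58) and 2.67-fold higher in the invasive than in the localized library (2.61 to 2.72). Itga6, which pairs with Itgb1 or Itgb4, had 33.7, 69.3 and 81.2 FPKM. Itgb4, the long-tailed beta chain that anchors hemidesmosomes to keratin, had 23.2, 49.5 and 52.0 FPKM. The 2 chains of α6β4 were thus both low in the localized library, with differences of 1.25 and 1.13 for metastatic against localized and 1.02 and 1.06 for invasive against localized. The FPKM of Itga6 over that of Itgb4 was 1.45, 1.40 and 1.56 in the 3 libraries. The invasive difference of Itga6 lay close to the 2-fold limit. Itga7, a laminin receptor chain of muscle, had 1.12, 0.480 and 0.826 FPKM and did not pass the filter.

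Of the partners of α6β4 inside the cell and beside it in the membrane, Plec, which links Itgb4 to keratin, had 64.7, 49.7 and 48.5 FPKM in the localized, invasive and metastatic libraries, and Dst, another hemidesmosome linker, had 15.3, 13.4 and 18.9 FPKM. Cd151, a tetraspanin that binds α3β1 and α6β4, had 174, 149 and 159 FPKM. Col17a1, the collagen of mature hemidesmosomes, had 0.175, 0.0323 and 0.0262 FPKM, below the filter and highest in the localized library. The tetraspanin Cd82 had 92.7, 297 and 230.2 FPKM and was the 1 of 6 tested members of this list that was called higher in each comparison with the localized library, beside 9.08% (metastatic) and 8.78% (invasive) of all tested genes. Among other laminin receptors, 2 of 6 were higher in both the invasive and the metastatic than in the localized library and 0 were lower, beside 9.08% higher and 7.29% lower of all tested genes for metastatic and 8.78% and 6.07% for invasive against localized. These were Bcam, the Lutheran receptor for the laminin α5 chain (10.5, 60.0 and 70.2 FPKM), and the proteoglycan Sdc1 (98.3, 331 and 324 FPKM). Dystroglycan, Dag1, had 67.3, 102 and 79.6 FPKM and stayed within 2-fold.

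Receptors of the RGD-binding group went the other way or hardly differed. Itga5 (GRCm38 chromosome 15, 103344286 to 103366763, minus strand), the alpha chain of the fibronectin receptor α5β1, had 51.2, 30.8 and 20.5 FPKM in the localized, invasive and metastatic libraries. Its level was 2.497-fold higher in the localized than in the metastatic library (95% interval 2.40 to 2.59), a difference of -1.28 for metastatic against localized, and each labelled stage was lower than the one before. The steps were -0.71 and -0.57 on the log2 scale, and the second was just under the 1.5-fold limit used for ordered stages. Fn1, fibronectin itself, had 928, 285 and 171 FPKM in the same order, with differences of -2.43 for metastatic against localized and -1.70 for invasive against localized. The fibronectin receptor chain and fibronectin were thus both highest in the localized library. Itgav, the alpha chain shared by αv integrins, had 34.4, 50.6 and 45.1 FPKM and stayed within 2-fold. The RGD-binding members Itga5, Itga8 and Itgav summed to 85.6, 81.4 and 65.6 FPKM, while all integrin alpha members summed to 184, 375 and 357 FPKM. As a share of that alpha total, which leaves out Itga2b, these RGD-binding chains held 46.5%, 21.7% and 18.4%. The laminin-binding chains held 50.7%, 60.2% and 64.5%. Most of the fall in the RGD-binding share in the invasive library thus came with the larger alpha total.

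The beta partners of αv did not share a pattern. Itgb5, the chain of the vitronectin receptor αvβ5, was high and nearly level with 74.0, 69.2 and 62.7 FPKM in the localized, invasive and metastatic libraries. Itgb3, the chain of αvβ3 and of the platelet receptor, peaked in the invasive library with 5.07, 14.9 and 7.75 FPKM. It was 2.94-fold higher in the invasive than in the localized library (95% interval 2.76 to 3.14), and the difference of -0.86 for metastatic against invasive stayed under 2-fold. Itga2b, the platelet partner of Itgb3, had 1.13, 0.238 and 0.155 FPKM, so it was highest in the library where Itgb3 was lowest. The 4 platelet markers summed to 1.93, 27.3 and 56.0 FPKM. The chemokines Pf4 and Ppbp made up most of this in the invasive and metastatic libraries, and Itga2b did so in the localized library. The platelet-defining Gp9 was at 0, 0.423 and 0.0728 FPKM. Itgb8, whose product with αv activates TGF-beta, had 2.80 FPKM in the localized library (about 1053 fragments), 0.0914 in the invasive (about 31) and 0.0630 in the metastatic library (about 22). Its mean of 0.986 FPKM lay just under the filter, so it was not tested, although its level was 44.5-fold higher in the localized than in the metastatic library (29.9 to 72.8). Itgb6, the epithelial beta chain that also activates TGF-beta, had 0.0806, 0.510 and 0.160 FPKM, about 17, 97 and 32 fragments, and was highest in the invasive library.

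The ligands of αv integrins did not follow 1 pattern either. Vtn, vitronectin, was listed at 0 in all 3 libraries. Spp1, osteopontin, was among the most abundant transcripts with 4444, 3312 and 2196 FPKM in the localized, invasive and metastatic libraries, a difference of -1.02 for metastatic against localized. Tgfb1, whose latent form is a ligand of αvβ6 and αvβ8, had 60.3, 85.0 and 64.9 FPKM and Tgfb3 had 10.3, 10.4 and 10.5 FPKM. The full list of ligands, which also holds the cell-surface proteins Cdh1, Icam1 and Vcam1, had 16 members past the filter. It shares Cdh1 with the epithelial markers, Col1a1 and Col3a1 with the fibroblast markers, and Col4a1 and Col4a2 with the basement membrane genes below. The results of these lists are therefore not independent of each other. For metastatic against localized 2 were higher (Npnt and Cdh1) and 9 lower, beside 9.08% and 7.29% of all tested genes. For invasive against localized 3 were higher (Npnt, Cdh1 and Vcam1) and 6 lower, beside 8.78% and 6.07%. For metastatic against invasive 0 were higher and 4 lower, beside 1.33% and 1.67%. The median ligand differences in the comparisons of the metastatic and invasive with the localized library were -1.23 and -0.43, against 0.00405 and -0.00143 over all tested genes. Thbs1, thrombospondin-1, had 26.2, 2.78 and 2.07 FPKM, and the microfibril protein Fbn1 had 15.3, 2.73 and 1.47 FPKM.

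**Figure D3:**
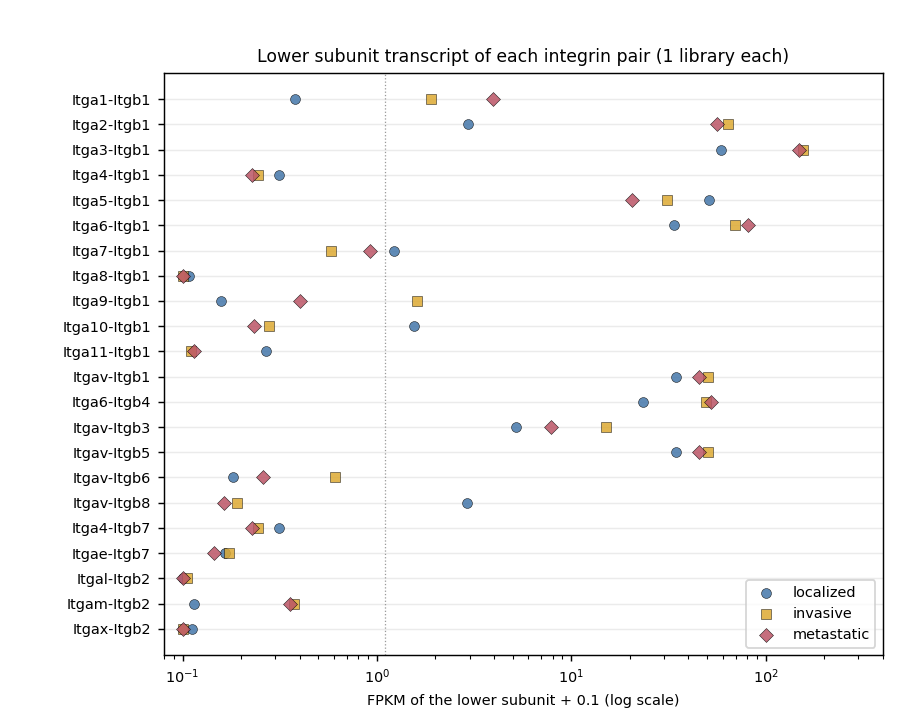
FPKM + 0.1 (log scale) of the lower of the 2 subunit transcripts for each integrin pair in the localized, invasive and metastatic libraries, with a dotted line at 1 FPKM. The pair Itga3-Itgb1 has the highest lower subunit in every library, and all pairs of Itgb2 and Itgb7 lie below 1 FPKM.

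The lower of both subunit transcripts was taken for each of 22 integrin pairs as a description of which pairs had both parts at hand. It does not measure protein. A chain shared by several pairs, such as Itgb1, was taken at its full level for each, so the pairs cannot be added up. For α3β1 the lower subunit was Itga3 in every library, at 58.5, 156 and 148 FPKM in the localized, invasive and metastatic libraries, where Itgb1 stood 3.41, 1.32 and 1.32 times as high. For α2β1 the lower subunit was Itga2, and Itgb1 stood 70.2, 3.22 and 3.46 times as high. For α5β1 the lower subunit was Itga5 and the gap was widest in the metastatic library, with Itgb1 at 3.90, 6.69 and 9.49 times the level of Itga5. For αvβ5 the lower subunit was Itgav, with Itgb5 at 2.15, 1.37 and 1.39 times its level.

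Beta chains of the leukocyte type were detected at far higher levels than any of their alpha partners among the members. Itgb2 (GRCm38 chromosome 10, 77530252 to 77565708, plus strand), the beta chain known from white blood cells, had 0.424, 9.09 and 15.8 FPKM in the localized, invasive and metastatic libraries, which is about 54, 1043 and 1919 fragments. It was 37.4-fold higher in the metastatic than in the localized library (95% interval 28.6 to 49.998) and 21.5-fold higher in the invasive than in the localized library (16.3 to 28.8). Itgb2 and Itga1 were the 2 of 18 members that were at least 1.5-fold higher at both labelled steps, beside 1.47% of all tested genes, and 0 members were lower at both, beside 1.54%. Its alpha partners among the members stayed near 0. Itgam, the chain of the complement receptor, had 0.0146, 0.275 and 0.255 FPKM (about 3, 50 and 50 fragments). Itgal, the partner in the lymphocyte receptor for Icam1, was listed at 0 in the localized and metastatic libraries and had about 1 fragment in the invasive library. Itgax, a chain of dendritic cells and macrophages, had about 2 fragments in the localized library and was listed at 0 in the other 2.

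Leukocyte markers were compared with Itgb2, since white blood cells are its usual source. The 7 markers summed to 5.53, 15.3 and 15.5 FPKM in the localized, invasive and metastatic libraries, with 1, 3 and 2 of them at 1 FPKM or more. Most of the sum was Cd68, a lysosomal protein (4.82, 10.5 and 9.93 FPKM). Ptprc, the pan-leukocyte surface protein CD45, had 0.0172, 0.197 and 0.0690 FPKM, and Cd3e and Adgre1, which define T cells and macrophages, were listed at 0 in all 3. Laptm5, a lysosomal protein of blood cells, had 0.0197, 1.61 and 4.90 FPKM and so shared the order of Itgb2, whereas Coro1a, an actin-binding protein of blood cells, peaked in the invasive library with 0.648, 2.79 and 0.535 FPKM. The part of these markers in the Itgb2 values was not tested. Icam1, the ligand of β2 integrins, had 21.4, 15.5 and 7.25 FPKM and ran in the opposite order.

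Itgb7, the beta chain of gut-homing lymphocytes, had 9.12, 8.16 and 4.90 FPKM in the localized, invasive and metastatic libraries and stayed within 2-fold. Its partners Itga4 (0.215, 0.143 and 0.126 FPKM) and Itgae (0.0660, 0.0732 and 0.0442 FPKM) were far lower in every library. Cdh1, the E-cadherin that αEβ7 binds, had 20.7, 218 and 118 FPKM, and Vcam1, a ligand of α4 integrins, had 57.1, 128 and 41.8 FPKM. Madcam1, the gut ligand of α4β7, had 0.0176 FPKM in the localized library and was listed at 0 in the other 2. The beta chain, Cdh1 and Vcam1 were thus well above the alpha chains in every library, and Madcam1 was below Itga4. Itga9, which pairs with Itgb1 and binds tenascin-C and osteopontin, had 0.0577, 1.51 and 0.2998 FPKM and did not pass the filter. Itga8, the kidney receptor chain for nephronectin, had about 2 fragments in the localized library and was listed at 0 in the other 2, while its ligand Npnt, nephronectin, had 25.1, 141 and 153 FPKM. Npnt was 6.11-fold higher in the metastatic than in the localized library (95% interval 5.91 to 6.32).

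Among laminins, the α5 chain was the main alpha chain in all 3 libraries and the α4 chain separated the localized line. Lama5 (GRCm38 chromosome 2, 180176373 to 180225859, minus strand), which forms the laminins of most adult epithelia, had 34.6, 98.5 and 82.8 FPKM in the localized, invasive and metastatic libraries. It was 2.39-fold higher in the metastatic than in the localized library (95% interval 2.35 to 2.44) and 2.85-fold higher in the invasive than in the localized library (2.80 to 2.90). Lama4 (GRCm38 chromosome 10, 38965515 to 39110188), a chain of endothelial, muscle and other mesenchymal laminins, had 7.02 FPKM in the localized library (about 1881 fragments), against 0.140 (about 34) for the invasive and 0.0274 (about 7) for the metastatic line. Only the localized library had it at a level above 1 FPKM. Its level was 256-fold higher in the localized than in the metastatic library (124 to 636) and 49.97-fold higher in the localized than in the invasive library (35.5 to 72.1). As differences these were -2.96 and -2.81. The 6 endothelial markers summed to 0.289, 0.621 and 0.292 FPKM, with Emcn listed at 0 in all 3 and Pecam1 at 0.148, 0.111 and 0.0515 FPKM. The fibroblast marker sums are given above, and the part of either marker list in the Lama4 values was not tested.

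As shares of the summed laminin alpha FPKM, Lama5 held 83.0%, 98.3% and 99.1% in the localized, invasive and metastatic libraries and Lama4 held 16.8%, 0.140% and 0.0328%. Lama3, the alpha chain of hemidesmosomal laminin, had 0.0731, 1.60 and 0.746 FPKM (about 35, 682 and 336 fragments) and did not pass the filter, with shares of 0.175%, 1.60% and 0.893%. Lama1 and Lama2, chains of the embryonic and the muscle basement membrane, had at most about 1 and 8 fragments in any library. Lamc3, a gamma chain outside the common laminins, had at most about 6.

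**Figure D4:**
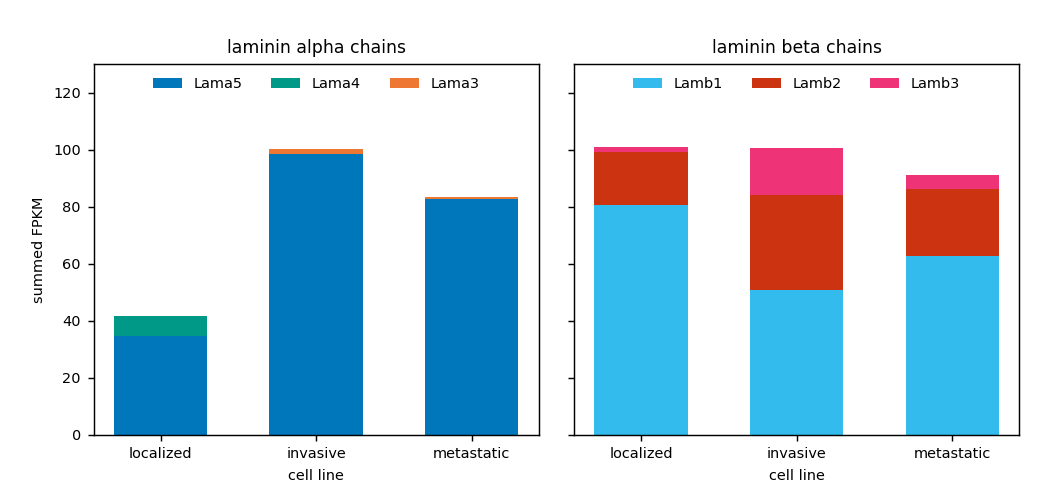
Stacked FPKM of the laminin alpha chains Lama5, Lama4 and Lama3 and the beta chains Lamb1, Lamb2 and Lamb3 in the localized, invasive and metastatic libraries. The alpha total is 41.7, 100.2 and 83.5 FPKM with Lama5 as the main chain, while the beta total is 101, 101 and 91.1 FPKM and its Lamb3 part is largest in the invasive library.

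The beta chains kept nearly the same total but differed in makeup. Lamb1, the common beta chain, had 80.7, 50.8 and 62.8 FPKM in the localized, invasive and metastatic libraries, and Lamb2, a beta chain of kidney and synapse laminins, had 18.6, 33.3 and 23.5 FPKM. Lamb1 was thus highest in the localized library and Lamb2 in the invasive one, both within 2-fold in every pair. Lamb3 (GRCm38 chromosome 1, 193207699 to 193343878, plus strand), the beta chain of hemidesmosomal laminin, had 1.85, 16.6 and 4.86 FPKM, which is about 396, 3208 and 988 fragments. It was 2.63-fold higher in the metastatic than in the localized library (95% interval 2.34 to 2.96) and 9.003-fold higher in the invasive than in the localized library (8.11 to 10.02). On the log2(FPKM + 1) scale it was also the only one of the 18 filtered members past 2-fold between the metastatic and invasive libraries, 3.43-fold higher in the invasive library (3.19 to 3.69). That difference of -1.59 ranked 50 from the bottom among 11404 genes. Lama3 and Lamb3, chains of the same hemidesmosomal laminin, both peaked in the invasive library. Shares of the beta total held by Lamb3 were 1.83%, 16.5% and 5.33%.

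Lamc1, the gamma chain of most laminins, was nearly level with 44.3, 41.2 and 37.1 FPKM in the localized, invasive and metastatic libraries. For the laminin made of the α5, β1 and γ1 chains, the lowest chain was Lama5 in the localized library (34.6 FPKM) and Lamc1 in the invasive and metastatic libraries (41.2 and 37.1 FPKM). For the laminins with the α4 chain, the lowest chain was Lama4 in every library. Of 11 other basement membrane genes past the filter, 2 were higher and 5 lower for metastatic against localized, beside 9.08% and 7.29% of all tested genes, and 1 was higher and 5 lower for invasive against localized, beside 8.78% and 6.07%. For metastatic against invasive 0 were higher and 3 lower, beside 1.33% and 1.67%. Nid1, which links laminin to type IV collagen, had 179.6, 87.2 and 120.4 FPKM and Hspg2, perlecan, had 64.3, 46.1 and 31.5 FPKM. Col18a1, the source of endostatin, had 33.5, 195 and 210.3 FPKM, in the direction of Lama5. Col15a1, its relative of mesenchymal basement membranes, had 28.7, 3.22 and 1.095 FPKM, in the direction of Lama4. Col4a6, a chain of smooth muscle and epithelial basement membranes, had 9.18, 0.367 and 0.00710 FPKM.

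Inside the cell, the adaptors Fermt1 and Tns4 had larger differences on the log2(FPKM + 1) scale than any filtered integrin. Of 24 focal adhesion adaptors past the filter, 3 were higher and 0 lower for metastatic against localized, beside 9.08% and 7.29% of all tested genes, and 2 were higher and 0 lower for invasive against localized, beside 8.78% and 6.07%. For metastatic against invasive 1 was higher (Tln2) and 0 lower, beside 1.33% and 1.67%. The counts of higher adaptors against the localized library were near the share over all tested genes. Fermt1, kindlin-1, the epithelial kindlin that activates integrins at the beta tail, had 0.0431 FPKM in the localized library (about 9 fragments), against 64.9 for the invasive and 59.2 for the metastatic line. It was 1376-fold higher in the metastatic than in the localized library (95% interval 750.1 to 3116). Fermt2, kindlin-2, its broadly expressed relative, had 27.4, 31.0 and 23.4 FPKM, and Fermt3, the blood-cell kindlin, had 0.172, 0.131 and 0.210 FPKM. Kindlin-2 was thus at a similar level in all 3 libraries and kindlin-1 was close to undetected in the localized one. Tns4, a tensin that binds beta tails in epithelial cells, had 2.30, 140 and 113 FPKM, 49.2-fold higher in the metastatic than in the localized library (45.0 to 54.0). Lims2, PINCH-2, of the complex with integrin-linked kinase, had 3.10, 5.95 and 10.8 FPKM. Tln1, talin-1, had 59.4, 63.9 and 62.4 FPKM, and Ilk, integrin-linked kinase, had 117, 96.5 and 104 FPKM. Tln2, talin-2, was lower than Tln1 with 2.85, 1.69 and 6.66 FPKM, and was 3.95-fold higher in the metastatic than in the invasive library (3.66 to 4.27).

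**Figure D5:**
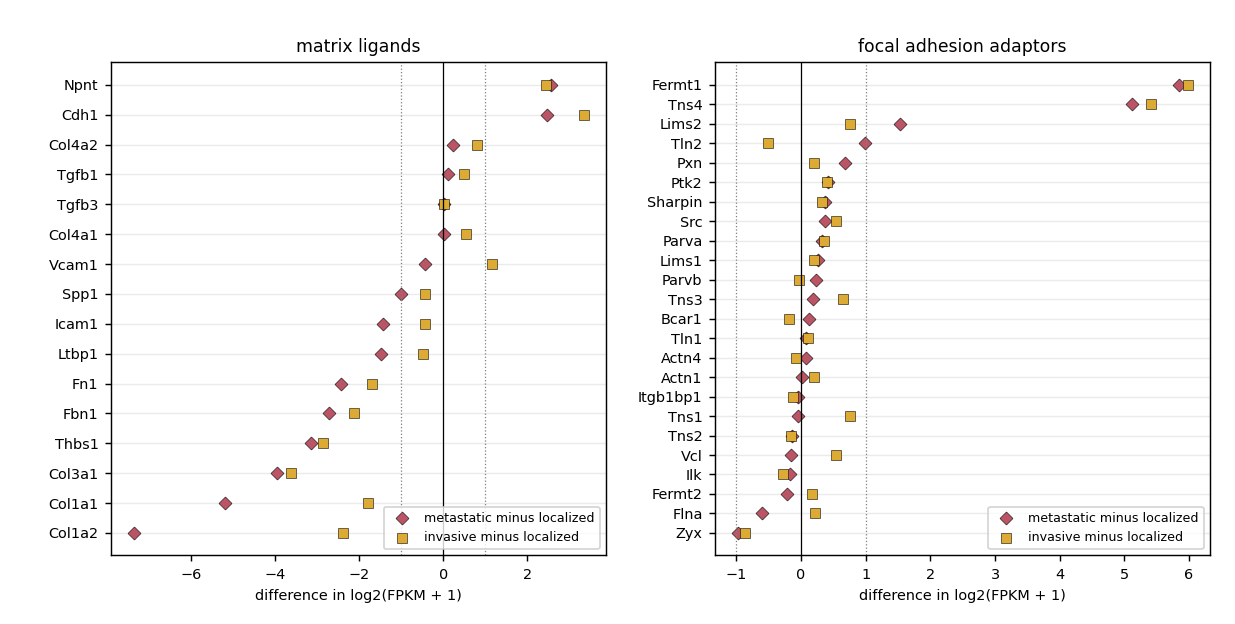
Difference in log2(FPKM + 1) against the localized library for 16 matrix and cell-surface ligands (left) and 24 focal adhesion adaptors (right) past the filter, diamonds for metastatic and squares for invasive, with dotted lines at 2-fold. Type I and III collagens, Thbs1, Fbn1 and Fn1 lie on the negative side, and Fermt1 and Tns4 stand at 5.85 and 5.11 for metastatic minus localized.

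Of the 16 members that did not pass the filter, 11 were below 1 FPKM in every library, with a highest value of 0.510 (Itgb6 in the invasive library). The other 5 were Itga7, Itga9, Itga10, Itgb8 and Lama3, described above. In the localized library Itga7, Itga10 and Itgb8 reached 1 FPKM, in the invasive library Itga9 and Lama3 did, and in the metastatic library 0 of the 16 did. Exons of 10 members overlapped another annotated gene, 3 of them (Itga4, Itga7 and Itga8) a gene of the deposited table, and strand was not given in the sources used here. All 3 of those members were below the filter.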

How the data were processed

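RNA from 3 mouse cell lines was profiled, 1 library each. The authors deposited FPKM per gene. Per the submitters' processing notes, Cufflinks 2.2.1, STAR 2.5.2a and FastQC 0.11.2 were used with GRCm38, in roles that are not stated. Groups came from the stage label, and 1 allele of the genotype label and 1 leukocyte marker are not reported here. The lowest deposited FPKM was 0.1 in each column and 0.1 was subtracted. Of 22784 entries, 27 with a date number for a name and 20 short RNA or rRNA genes were left out. Depth was estimated from genes with 1 annotated transcript (GENCODE M21), as the depth at which low FPKM values came nearest to whole fragments (within 0.1 for 81.2% to 84.5% of them), with a fragment length of 180 bases assumed. Fragment numbers of members use the principal transcript length and are approximate. Ratio intervals are conditional exact binomial intervals at 95%. Calls and the depth estimate were run on simulated data with counting error only. The simulation used the same assumed fragment length, so it did not test that assumption. Members, lists, pairs and motifs were chosen with earlier results of these data known. All members could be named, and of other lists those with the largest differences, ligands of a described receptor and the markers given. Plec, Dst, Cd151, Col17a1, Dag1, Nid1, Hspg2, Fermt2, Fermt3, Tln1 and Ilk were named for their role after their values were seen. Adgre1 and Tns2 were matched by older symbols. Python 3.11.15, pandas 2.3.3 and scipy 1.17.1 were used.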

Additional observations from a re-analysis of the deposited data

How the results depend on the processing

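The member counts, the member medians and the differences of the 18 filtered members were recomputed with a pseudocount of 0.1, with no filter on low values, with a filter of at least 5 FPKM, without subtracting 0.1 and with median-ratio scaling of the libraries. Of 45 recomputed counts and medians, 35 stayed within 1.5 times (counts) or 0.1 (medians) of the reported value. Of 264 differences of single members listed over these settings, 263 stayed on the same side of the 2-fold limit. A change of filter alters only which genes enter, so single differences under those settings were fixed in advance and say nothing about robustness. Without the filter, all 34 members entered, and 4 were lower for metastatic against localized and 3 for invasive against localized (Itga10 and Itgb8 added in each). For invasive against localized 11 were then higher (Itga9 and Lama3 added). The medians against the localized library were then 0.0056 (metastatic) and 0.0083 (invasive), and -0.049 between the metastatic and invasive libraries, since the added members were near 0. With the filter of at least 5 FPKM, which removes Itga1 and Lama4, 1 and 0 members were lower in the comparisons of the metastatic and invasive with the localized library. Without subtracting 0.1, Itgb8 passed the filter, so that 2 members were lower for invasive against localized and the median was 0.81. With a pseudocount of 0.1, Itga1 passed 2-fold for metastatic against invasive with a difference of 1.05, so that 1 member was higher there. Median-ratio scaling changed no call of a member. No called direction was reversed. No paired analysis was possible because each line has 1 library, and no library could be left out of a comparison for the same reason. Depth limits the members with few estimated fragments, such as Itga8, Itgal, Itgax and Lama1.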
